A study of Danio rerio with 3 samples.

Results

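The hoxda locus of zebrafish was examined as every peak summit on chromosome 9 between 1300000 and 2700000 (danRer11) in 3 lists of CUT&RUN peaks. In CUT&RUN, a nuclease tethered to the antibody cuts out DNA beside a histone mark inside intact nuclei. Here the cells came from posterior trunks of wild-type embryos at 16 hours post fertilisation, with antibodies against H3K27ac in 2 libraries (replicates 1 and 2) and against H3K27me3 in 1 library. Peaks that touched or overlapped were merged within a list. The merged lists gave 99 regions for replicate 1 and 116 for replicate 2 of H3K27ac, and 48 for H3K27me3, or 263 of the 123082 regions of the nuclear genome. The stretch was selected on the tag densities of all 3 libraries, which stand out there, and by its place around the hoxda genes, so its levels are a description. The series title names the cloaca, the common outlet of gut and urinary ducts. The tissue is a dissected piece of the embryo that holds several cell types, so a mark in few cells and a weak mark in many cells cannot be told apart.

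H3K27ac is laid down at active enhancers and promoters, and H3K27me3 is the mark of Polycomb repression. Both modify the same lysine, so 1 histone tail cannot carry both. Hox genes code for transcription factors that give cells their place along the body axis, and in a cluster they are switched on in the order in which they lie on the chromosome. In mouse, the HoxD cluster lies between a pair of large regulatory landscapes, 3DOM on the side of the genes used first and 5DOM on the side of the genes used last, beyond Evx2 and Lnpk. Limb, digit and genital enhancers have been mapped in these landscapes.

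The locus was cut by position into the left flank below 1.93 Mb (630 kb), the cluster from 1.93 to 2.01 Mb (82 kb) and the right flank above it (688 kb). The left flank had been described as the 5DOM side when the bounds were chosen. No annotation of danRer11 was used here, so this could not be checked on the build of the files. In RefSeq's gene table of another assembly, GRCz12tu, the order toward higher coordinates on chromosome 9 is hnrnpa3, nfe2l2a, hoxd3a, hoxd4a, hoxd9a, hoxd10a, hoxd11a, hoxd12a, hoxd13a, evx2, lnpa, atp5mc3a and atf2. There the evx2 and lnpa end, which borders 5DOM in mouse, lies toward higher coordinates, which goes against that description. The flanks are therefore called left and right, and no region is assigned to a gene.

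For each region the deposited fold and p-value together gave the number of tags in the 10 kb around the summit. These tags divided by the genome-wide background of the same library are called the density. A merged region keeps the highest density of its peaks. The scale starts at 1, exists only at called regions, and differs in meaning between the 2 antibodies, so no density of one mark is set against one of the other. The genome-wide backgrounds were 40.3 and 55.0 tags per 10 kb for H3K27ac (replicates 1 and 2) and 18.5 for H3K27me3. As a mean pileup per base these are 0.806, 1.1 and 0.370. Provided the 3 calls used 1 genome size, H3K27ac replicate 1 had 73.2% and H3K27me3 33.6% of the depth of H3K27ac replicate 2. Windows of summits closer than 10 kb share tags, so neighbouring densities are not independent. H3K27me3 has no replicate, and the labels do not tell if separate clutches gave the H3K27ac replicates, so the spread between these may be technical.

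**Figure D1:**
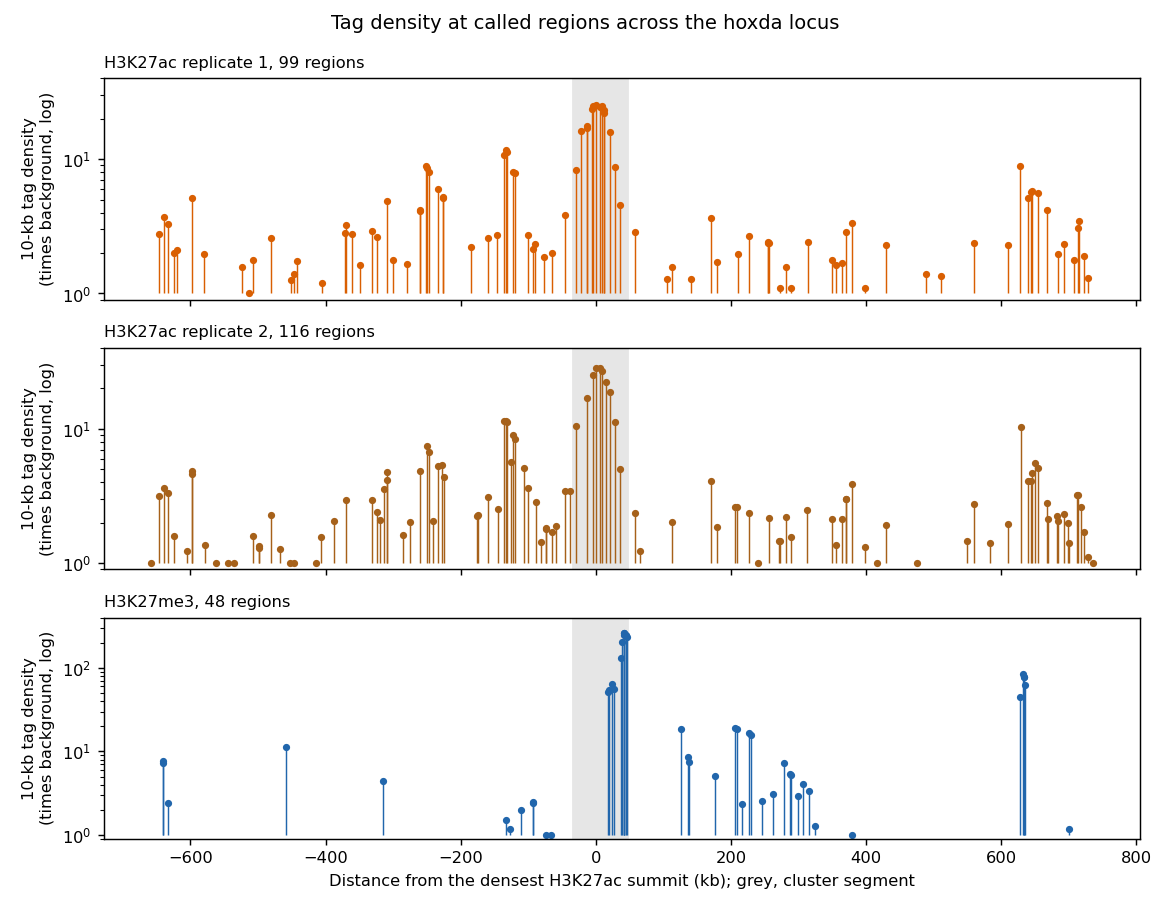
Tag density at every called region (points with stems) of H3K27ac replicate 1, H3K27ac replicate 2 and H3K27me3, on a log axis, against the distance in kb from the densest H3K27ac summit; the cluster segment is grey. H3K27ac reaches 25.5 and 28.4 in the cluster, and H3K27me3 reaches 265 at the right end of the grey segment and 83.8 far to the right.

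Within the cluster, H3K27ac formed 1 broad hill that filled its left and middle parts, and H3K27me3 filled its right end. H3K27ac had 14 regions in replicate 1 and 10 in replicate 2, with median densities of 19.8 and 20.5. H3K27me3 had 11 regions there with a median density of 204. Of these regions, 11 of 14 in replicate 1 and 9 of 10 in replicate 2 had a density of at least 10, against 5.14% and 4.79% over the whole lists. All 11 H3K27me3 regions had a density of at least 50, against 13.7% over the whole list. The locus was chosen with these values known, so nothing is read from the differences.

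At the left edge of the hill, the first regions inside the cluster bound were denser than the last ones before it. The last H3K27ac regions before the cluster, at 1918420 in replicate 1 and 1926135 in replicate 2, had densities of 3.85 and 3.42. The first ones inside it, at 1933867 and 1934444, had 8.34 and 10.6. These regions of the replicates do not overlap each other. A region at 1942213 with 16.2 was called in replicate 1 alone, so up to there the left slope of the hill rests on single-replicate regions.

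The intervals found in both replicates then traced the upper left slope, the top and the right slope, and all 8 are given here from left to right. The interval from 1950161 to 1950401 had 17.2 in replicate 1 and 17.0 in replicate 2, and the one from 1959623 to 1959834 had 25.1 and 25.3. The top of the hill was flat. Densities were 25.5 and 28.4 from 1963397 to 1963709, 24.6 and 28.3 from 1970064 to 1970268, and 25.0 and 27.2 from 1972605 to 1972684. The means of these 3 intervals were 26.9 ± 2.08, 26.5 ± 2.63 and 26.1 ± 1.54 (SD, n = 2 each), so their order lies within the spread between replicates.

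To the right of the top, each of the next intervals was lower than the one before it in both replicates. The density was 16.0 in replicate 1 and 18.7 in replicate 2 from 1984355 to 1984778. It was 8.68 and 11.3 from 1992344 to 1992545, and 4.54 and 5.01 from 1999629 to 1999837. The means were 17.4 ± 1.95, 9.98 ± 1.84 and 4.78 ± 0.336 (SD, n = 2 each), and each step was larger than the spread between replicates. The next H3K27ac region to the right, at 2021042 in replicate 1 and 2020977 in replicate 2, lay in the right flank with 2.85 and 2.38.

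Over the same stretch, H3K27me3 was called only along the right slope of the hill and beyond it. No H3K27me3 region was called between 1898234 and 1981628, which covers the left slope and the top of the H3K27ac hill. The first 4 regions of the cluster, with summits from 1981730 to 1990387, had densities of 51.8, 54.7, 63.5 and 55.8, from 958 to 1175 tags. They stood between and beside the H3K27ac intervals of the right slope. The next region, from 2000352 to 2000551, had a density of 131 in a window that reached into the denser regions to its right. Its pileup was 80, against 66 and 60 at the last regions before it. Its summit lay 554 bp from the H3K27ac summit of replicate 1 and 790 bp from that of replicate 2.

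The H3K27me3 maximum followed at once. The 6 regions with summits from 2002710 to 2010233 had densities of 204, 247, 264, 265, 249 and 231, from 3783 to 4903 tags. The densest, from 2005751 to 2006384, was number 50 of 17121 regions in the H3K27me3 list. No H3K27ac region of either replicate was called between 2000147 and 2020704, which holds all 6. Unmerged peaks were also taken in steps of 10 kb by their own summits. The highest H3K27ac density was then 26.7 ± 2.35, 17.4 ± 1.95 and 9.98 ± 1.84 (SD, n = 2 each) from 1.97, 1.98 and 1.99 Mb. The H3K27me3 list had no peak in the first of these steps and reached 63.5 and 54.2 in the other two. It reached 265 in the step from 2.00 Mb, where H3K27ac had none. The merged region with its summit at 1990387, given above as 55.8, spans a step bound and keeps the highest value of its peaks. So does the region with its summit at 2010233, given above as 231, where the peak at that summit had 208.

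**Figure D2:**
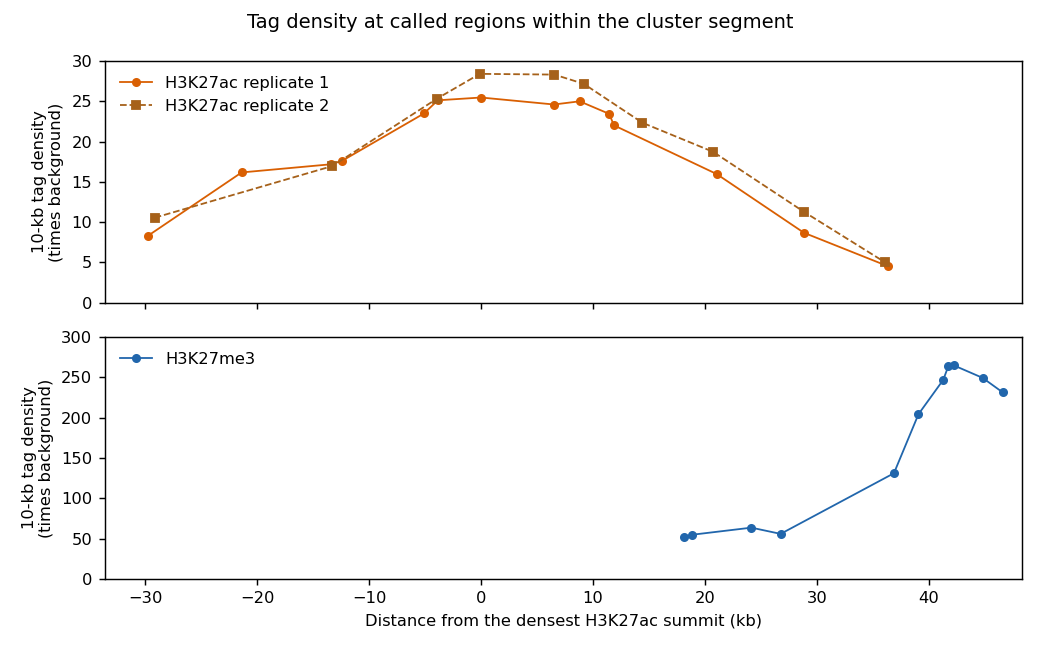
Tag density at called regions of the cluster segment against the distance in kb from the densest H3K27ac summit, with H3K27ac replicates 1 and 2 above and H3K27me3 below on a separate scale. H3K27ac declines to 4.54 and 5.01 at the right end of its hill, where the first H3K27me3 region above 100 has 131. The window of that region reaches into the denser H3K27me3 regions to its right.

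No H3K27me3 region of the cluster overlapped an H3K27ac region: 0 of 11 did so in replicate 1 and 0 of 11 in replicate 2, which allows a share of up to 27.3% (3 counts, counting error only). Over the whole list 17.3% of H3K27me3 regions overlapped a region of replicate 1 and 22.9% one of replicate 2. This limit lies above both of these shares, so a shortage of overlap in the cluster was not detectable. Of the 11 regions, 7 lay within 5 kb of H3K27ac found in both replicates, as did 6 of 12 in the left flank, 11 of 25 in the right flank and 35.6% of the whole list. The farthest of the cluster lay 9.33 kb from it.

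The cluster regions had low folds and widths near those of their lists. Median widths were 333 and 370 bp in H3K27ac replicates 1 and 2 and 450 bp in H3K27me3, against 340, 371 and 388 bp in the whole lists. The deposited fold, which sets the summit against the 10 kb around it, had a median of 2.41 in replicate 1, 2.28 in replicate 2 and 2.05 in H3K27me3. The medians of the whole lists were 3.77, 3.50 and 3.90. The highest pileup of a region was a median of 4.97% and 4.60% of its window tags in H3K27ac replicates 1 and 2 and 4.12% in H3K27me3, against 10.4%, 9.23% and 12.1% in the whole lists. The locus was chosen for its dense windows, whose tags stand in the denominator of both measures, so these are a description. Ranked by density, the median cluster region stood at percentile 99.7, 99.8 and 98.4 of its list in the same order. Ranked by -log10 q it stood at 59.4, 70.3 and 80.3.

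The left flank carried H3K27ac in 2 dense groups. It had 1.90 H3K27me3 regions per 100 kb, against 3.63 in the right flank. There were 46 and 58 H3K27ac regions (replicates 1 and 2) and 12 H3K27me3 regions, with median densities of 2.75, 2.48 and 2.43. The medians of the whole lists were 3.13, 2.71 and 5.94. The typical H3K27ac region of this flank was therefore near the middle of its list, at percentiles 43.1 and 45.6, and the 2 groups stood above it.

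The group nearer the cluster lay from 1.83 to 1.84 Mb and had 4 intervals found in both replicates. Densities were 10.8 in replicate 1 and 11.4 in replicate 2 from 1827581 to 1827978, and 11.7 and 11.4 from 1830378 to 1830734. They were 8.04 and 9.05 from 1841500 to 1841679, and 7.94 and 8.41 from 1843678 to 1844493. The mean at the highest interval, 11.5 ± 0.233 (SD, n = 2), was below the cluster's top in both replicates. The last interval had the highest folds of the group, 5.27 and 5.69 as deposited, and a region of 847 bp in replicate 1 and 1109 bp in replicate 2.

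The group farther out lay from 1.71 to 1.74 Mb and also had 4 intervals among the 8 densest of the flank. The densest was the one from 1714244 to 1714677, with 8.53 in replicate 1 and 7.47 in replicate 2. The next, from 1716315 to 1716970, had 8.09 and 6.70. The other two, from 1729547 and from 1736620, had means of 5.67 ± 0.511 and 5.32 ± 0.114 (SD, n = 2 each). No H3K27me3 region was called between 1649694 and 1830121, which covers this group and the gap to the other one, a stretch of 180 kb.

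H3K27me3 in the left flank was weak next to the cluster. From 1830121 to 1898234 there were 7 regions with densities of 1 to 2.49. The densest region of the flank, from 1505443 to 1506391, reached 11.4 from 211 tags, and 2 regions near 1.32 Mb reached 7.35 and 7.62. Each lay below the lowest value in the cluster, 51.8. Of the 12 regions, 2 overlapped H3K27ac found in both replicates, or 16.7% (exact Clopper-Pearson 95% interval 2.09 to 48.4%, counting error only here and below), against 12.0% over the whole list.

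The right flank had 5.67 and 6.98 H3K27ac regions per 100 kb (replicates 1 and 2), against 7.30 and 9.21 in the left flank. It held a chain of H3K27me3 regions on the side of the cluster and a dense island of H3K27me3 near its far end. There were 39 and 48 H3K27ac regions (replicates 1 and 2) and 25 H3K27me3 regions, with median densities of 2.31, 2.16 and 7.29. The chain ran from 2089366 to 2287634 and held 18 regions. No H3K27me3 region was called between the end of the last one in the cluster, at 2010450, and the start of the chain. The regions from 2089366 to 2090488, from 2169141 to 2170207 and from 2173160 to 2173531 had densities of 18.4, 19.0 and 18.4. Others in the chain had down to 1.30. The first of them had the highest deposited fold of the H3K27me3 regions of the locus, 5.93.

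In the 300 kb next to the cluster the right flank had 15 H3K27ac regions in each replicate, against 27 and 35 in the left flank. None of the right ones exceeded 3.65 in replicate 1 or 4.07 in replicate 2, the values of the interval from 2133604 to 2133855. One interval of high fold lay farther out, from 2342984 to 2343687, with deposited folds of 8.11 in replicate 1 and 9.32 in replicate 2, the highest of the locus in each list. Its densities were only 3.35 and 3.87. A weak H3K27me3 region with a density of 1 from a pileup of 5 lay under it.

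Beyond that interval H3K27me3 was absent from the list for 248 kb, from 2343492 to 2591190, the longest such stretch of the locus. H3K27ac was sparse there too, with no interval found in both replicates for 129 kb from 2393891 to 2522485. An H3K27me3 island of 5 regions followed from 2591190 to 2598946, with densities of 44.8, 83.8, 78.8, 76.9 and 62.0. Like the cluster's H3K27me3, these regions had low folds, from 2.05 to 3.25, and none overlapped an H3K27ac region of either replicate. H3K27ac had 1 region in each replicate beside them, at 2590704 with 8.98 and at 2593381 with 10.3, which did not overlap each other.

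H3K27ac found in both replicates resumed just right of the island. The intervals from 2603763, 2607105, 2609573 and 2617801 had means of 4.62 ± 0.802, 4.85 ± 1.13, 5.26 ± 0.808 and 5.36 ± 0.311 (SD, n = 2 each). These are the densest paired intervals of the right flank. This H3K27ac group lay right of the H3K27me3 island. The single-replicate H3K27ac regions, at 2590704 with 8.98 in replicate 1 and at 2593381 with 10.3 in replicate 2, were denser than this group. They lay just left of the island and within it, so no order of the marks is read here.

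Apart from the dense groups, both flanks held H3K27ac intervals of high fold that stood alone in windows of low density. After the one near 2.34 Mb, the highest folds shared by the replicates were 7.79 in replicate 1 and 7.39 in replicate 2 from 1483401 to 1483975, in the left flank. The interval from 2522485 to 2523259, in the right flank, had 6.51 and 7.96. Their densities were 2.58 and 2.29 on the left and 2.38 and 2.76 on the right, against 25.5 and 28.4 at the cluster's top, where the folds were 2.69 and 2.14. These intervals were chosen by fold after the values were seen. The background of the window stands in the denominator of the fold, so choosing by high fold favours low density. The contrast with the cluster's top is a description.

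The flanks were compared with the left over the right. H3K27ac covered 2935 bp per 100 kb in replicate 1 and 3807 in replicate 2 in the left flank, against 2203 and 3053 in the right flank. The log2 ratio was 0.41 and 0.32, or 0.37 ± 0.07 (SD, n = 2). In the lists as called, the difference lay the same way in both replicates and was larger than the spread between them. Under a cutoff of 5 on the -log10 q scale the ratio was 0.45 ± 0.39. When every list was trimmed to 17121 regions it was 0.53 ± 0.46 (SD, n = 2 each). Under both of these settings the spread was nearly as large as the difference. No test was run, since an exact two-sided sign-flip test over 2 libraries cannot give a p below 0.5. H3K27me3 covered 782 bp per 100 kb in the left flank, against 1842 in the right flank, a log2 ratio of -1.24 with no replicate.

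The differences were larger within 300 kb of the cluster. There, H3K27ac covered 11131 bp in replicate 1 and 15698 in replicate 2 on the left, against 5050 and 7086 on the right, which is 2.20 and 2.22 times as much. The log2 ratio was 1.14 ± 0.005 (SD, n = 2). H3K27me3 covered 2521 bp on the left, against 9414 on the right, a log2 ratio of -1.90. In the first 100 kb alone, H3K27me3 covered 1979 bp on the left, against 1774 on the right, so its excess on the right lay farther out. The distance of 300 kb was chosen after the values were seen. The H3K27ac contrast was reversed in the next bin outward. From 300 to 400 kb, replicates 1 and 2 covered 1442 and 1068 bp on the left, against 3347 and 4342 on the right. From 400 to 500 kb they covered 2505 and 2533 bp on the left, against 581 and 279 on the right. In the outermost 88 kb of the right flank, H3K27ac covered 3870 and 7402 bp per 100 kb. The contrast therefore did not hold over the whole length of the flanks.

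**Figure D3:**
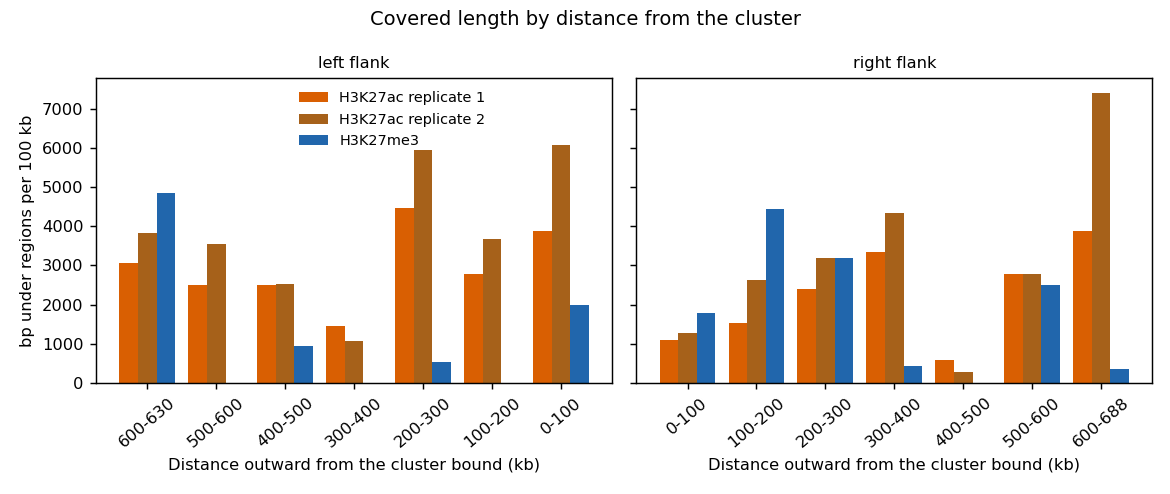
bp under regions per 100 kb (bars, 1 per library) in bins outward from the cluster bounds, for the left flank on the left and the right flank on the right; the outermost bins of 30 and 88 kb are scaled to 100 kb. In the first bin H3K27ac has 3869 and 6082 bp on the left, against 1107 and 1268 bp on the right. H3K27me3 has 1979 bp on the left there, against 1774 bp on the right.

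The marks met at 6 places of the locus, where an H3K27me3 region overlapped H3K27ac found in both replicates. They were 6 of 48 H3K27me3 regions, or 12.5% (exact 95% interval 4.73 to 25.2%), against 12.0% over the whole list. They were also 6 of 68 H3K27ac intervals, or 8.82% (exact 95% interval 3.31 to 18.2%), against 7.50%. These shares lie near those of the whole lists.

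None of the 6 places had a high density of both marks. In the left flank, the shared stretch from 1830378 to 1830615 lay on the densest H3K27ac interval of that flank, with 11.5 ± 0.233 (SD, n = 2), and had an H3K27me3 density of 1.51 from 28 tags. The one from 1898080 to 1898234 had an H3K27ac density of 1.86 ± 0.213 (SD, n = 2) and an H3K27me3 density of 1. In the right flank, the stretches from 2173194 to 2173529 and from 2189846 to 2190208 lay in the H3K27me3 chain. Their H3K27ac densities were 2.31 ± 0.459 and 2.53 ± 0.212 (SD, n = 2 each) and their H3K27me3 densities 18.4 and 16.4. The remaining 2 were the stretch from 2252051 to 2252198, with 1.33 ± 0.333 (SD, n = 2) for H3K27ac and 5.19 for H3K27me3, and the interval of high fold near 2.34 Mb.

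The H3K27ac replicates matched closely in density and less closely in which regions were called. Of the 99 regions of replicate 1, 67 overlapped a region of replicate 2, or 67.7% (exact 95% interval 57.5 to 76.7%), against 59.3% over the whole list. Of the 116 regions of replicate 2, 67 overlapped replicate 1, or 57.8% (exact 95% interval 48.2 to 66.9%), against 43.0% over the whole list. At the 68 shared intervals the median log2 ratio of density (replicate 2 over replicate 1) was -0.004 with an SD of 0.26, the same SD as at the 27647 shared intervals of the genome. Summits of the replicates lay a median of 68.5 bp apart.

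Regions called in 1 replicate were weaker and narrower than shared ones. A wide region meets an overlap of at least 1 bp more easily, so these values are a description. In replicate 1 the 32 single regions had a median -log10 q of 2.41 and a median width of 248 bp, against 4.18 and 398 bp for the 67 shared ones. In replicate 2 the 49 single regions had 2.42 and 258 bp, against 5.15 and 464 bp for the 67 shared ones. Single regions were not confined to sparse stretches, since the densest had 23.5 in replicate 1 and 22.3 in replicate 2, both on the hill in the cluster.

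Over the whole list, replicate 2 had the higher density at 14694 of 27647 intervals found in both replicates, or 53.1%, with a median log2 ratio of 0.02. In the cluster it was higher at 7 of 8, with a median of 0.15. In the left flank it was higher at 11 of 30, with a median of -0.11, and in the right flank at 16 of 30, with a median of 0.04. At the 5 intervals from 2603763 to 2631180, right of the H3K27me3 island, replicate 1 was higher at each, with log2 ratios from -0.12 to -0.57. Neighbouring intervals share window tags and count as few independent places, and no difference between places was tested.

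**Figure D4:**
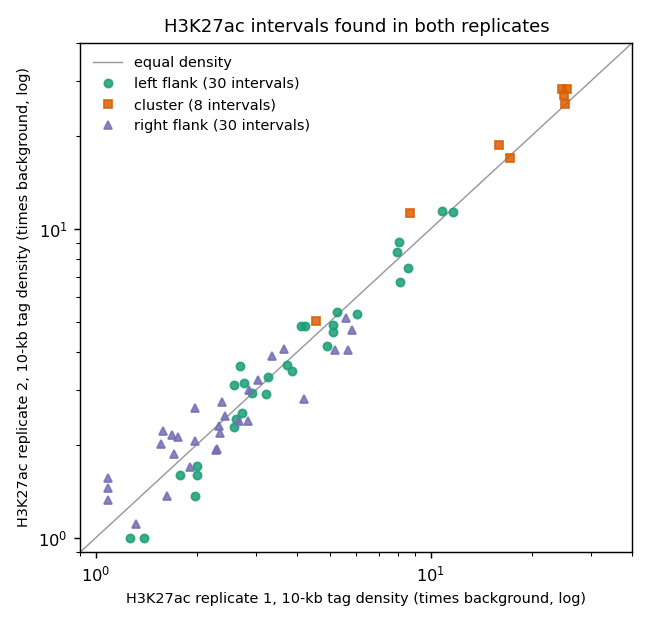
Tag density of H3K27ac replicate 2 against replicate 1 at the 68 intervals found in both, on log axes, by segment; the line marks equal density. The 8 cluster intervals reach from 4.54 and 5.01 to 25.5 and 28.4, and right flank intervals stay below 6 in both replicates.

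The bounds of the window fell in stretches of low density for H3K27ac. The summits just outside them, at 1289850 and 2715993 in replicate 1 and at 1289690 and 2708725 in replicate 2, had densities of 1.19, 1.86, 1.11 and 2.07. The outermost ones inside, at 1317282 and 2691576 in replicate 1 and at 1305140 and 2699849 in replicate 2, had 2.68, 1.31, 1 and 1. For H3K27me3, the summits outside, at 1247528 and 2707094, had 2.59 and 6.0, and the outermost ones inside, at 1322742 and 2664651, had 7.35 and 1.19.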

How the data were processed

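Per the submitters' processing notes, the tools were MACS2 2.2.7.1, Bowtie2 2.4.5, Picard 3.0.0, cutadapt 4.1, bedtools 2.30.0 and SAMtools 1.16.1. The build was danRer11. Their settings and roles were not given in the sources used here. Control libraries were not used here. The 3 deposited lists, 1 per library, give the authors' score, fold (a ratio of summit pileup to local background), and p-value and q-value on a -log10 scale. The lowest -log10 q was 1.30.

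Touching or overlapping lines were merged, and each region keeps its highest values and the summit of its strongest line. In MACS2 the fold is pileup plus 1 over background plus 1, and a Poisson tail gives p. Both were solved for a whole pileup. Every line had a solution within 0.001 of its -log10 p. Backgrounds were 1 fixed value per list or whole multiples of 0.02, within 0.05 of a multiple. Of the lines of H3K27ac replicates 1 and 2 and H3K27me3, 102, 3 and 369 had several solutions, 0, 0 and 3 of them in the locus. The one nearest to the fixed value or to a whole multiple was taken. A multiple of 0.02 is what a tag of 200 bp adds over 10 kb, a reading that comes from the values and not from the labels. On 3000 simulated lines per list, 100% of pileups and backgrounds were recovered. This tests the arithmetic only. The mitochondrial genome was left out.

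Groups and replicate numbers come from sample titles. No test across samples was run. Overlap means at least 1 bp. Sites are named by rule: up to the 10 densest of each mark in the cluster and the 8 densest of each flank, all places with both marks and the regions at the bounds. Some flank values are given as ranges, and a few of the weaker flank sites under this rule are not named. Other regions named were chosen after their values were seen. The window, segments and lists were chosen with earlier results of these data known. No genome of danRer11 was used here, so no sequence is printed. The software was scipy 1.17.1, pandas 2.3.3, matplotlib 3.10.9 and numpy 2.4.6 under Python 3.11.15.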

Additional observations from a re-analysis of the deposited data

How the results depend on the processing

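No paired analysis of the marks was run, since H3K27me3 had 1 library and only replicate number 1 occurred for both marks. No test was run. Of 134 alternative values, 59 moved. For counts this means by over 1.5 times, and for H3K27ac means by at least 1 SD between replicates. For the longest stretch without H3K27me3 it means by any amount. For shares, percentiles and H3K27me3 densities it means beyond their 95% counting interval. For percentiles that interval counts the regions of the whole list and not the few of the cluster. It is therefore narrow and does not measure the spread of the cluster's median. Only the log2 ratios of left over right could change sign, and 0 did. Some values could not count as moved. Without 1 replicate, a mean over 2 shifts by less than 1 SD whatever the values are. The H3K27me3 list already had 17121 regions, so equal lists left its regions unchanged. The narrower window left the cluster unchanged. The count of 59 is therefore no measure of stability. With only peaks of a -log10 q of at least 5, regions in the left flank, cluster and right flank numbered 13, 5 and 15 in H3K27ac replicate 1, 20, 6 and 13 in replicate 2, and 3, 7 and 12 in H3K27me3. With the strongest 17121 regions of each list they numbered 16, 6 and 17 in H3K27ac replicate 1 and 18, 5 and 11 in replicate 2. The window from 1.4 to 2.6 Mb left 30 right flank regions in H3K27ac replicate 2, and unmerged peaks gave 21 H3K27me3 lines in the cluster. The log2 of left over right in H3K27ac bp was 0.45 ± 0.39 at the higher -log10 q, 0.53 ± 0.46 with equal lists and 0.68 ± 0.04 in the narrower window (SD, n = 2 each). That of the highest density was 0.26 as called, 1.28 at the higher -log10 q and 1.28 with equal lists. That of the median density was 0.23 as called, 1.04 at the higher -log10 q, 1.16 with equal lists and 0.34 in the narrower window. Within 300 kb, chosen after seeing the data, these ratios were 1.14 for bp, 1.59 for the highest density and 0.86 for the median. There the highest densities were 3.86 for H3K27ac on the right, and 4.43 on the left and 19.0 on the right for H3K27me3. At a -log10 q of at least 5 the highest H3K27ac density on the right was 4.85. Pileup in place of density, in multiples of background, was highest at 50.7, 66.2 and 40.4 for H3K27ac in the left flank, cluster and right flank, and at 70.2, 546 and 262 for H3K27me3. Pileup is on another scale than density, so counting these highest values as moved says nothing about stability. By pileup the cluster's median percentile was 96.8, 96.5 and 95.4 in H3K27ac replicates 1 and 2 and H3K27me3, and by -log10 q 59.4, 70.3 and 80.3. A 50% reciprocal overlap put 46.5% of replicate 1 and 39.7% of replicate 2 in the other, and equal lists put 73.5% of replicate 2 in replicate 1. Places with both marks numbered 1 at a -log10 q of at least 5, 2 with reciprocal overlap and 11 with H3K27ac in either replicate. The median distance from H3K27me3 to the nearest H3K27ac summit was 1680 ± 411, 3260 ± 223 and 4386 ± 1150 bp in the left flank, cluster and right flank (SD, n = 2 H3K27ac replicates each). It was 6059 ± 147, 20092 ± 13220 and 17193 ± 5212 bp at the higher -log10 q, and with equal lists 6200 ± 102, 18732 ± 12017 and 14688 ± 3187 bp, since fewer regions remain. The cluster values were 29440 bp from H3K27ac replicate 1 and 10744 bp from replicate 2 at the higher -log10 q, and 27229 and 10235 bp with equal lists. The longest stretch without H3K27ac was 65.9 ± 11.0 kb (SD, n = 2) as called, and 196 kb both with equal lists and at the higher -log10 q. That without H3K27me3 was 476 kb at a -log10 q of at least 5. Without H3K27ac replicate 1 or replicate 2, the log2 of left over right was 0.32 to 0.41 for bp, 0.15 to 0.38 for the highest density (0.15 without replicate 1) and 0.20 to 0.26 for the median, and places with both marks numbered 8 to 9. Unless stated, the cause of a change was not tested. If 1 genome size was used, H3K27me3 had 33.6% of the depth of H3K27ac replicate 2, and the effect of depth was not tested.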
